A study of Mus musculus with 3 samples.

Results

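The secreted factors Kitl, Cxcl12, Fgf9, Fgf2 and Csf1 and the receptors Cxcr4, Ackr3, Fgfr1 and Fgfr3 were followed through the cell classes of the neonatal mouse testis, to find which cells carry the RNA of each signal and which carry the RNA of its receptor. These 9 genes were taken by name from the 27998 genes measured, with earlier results of these data known. RNA was captured from single cells of dissociated day 3 testes (dissection is given as 3.5 days after birth) by 10x Genomics 3-prime chemistry. The mice had a background of FVB/NJ mixed with B6(Cg)-Tyrc-2J/J. The 3 genotypes were wild type (Cdk2 +/+, called Cdk2-WT), heterozygous (+/YS, Cdk2-HET) and homozygous (YS/YS, Cdk2-Y15S), where Y15S replaces the tyrosine of CDK2 whose phosphorylation inhibits the kinase. Each genotype had 1 library, and the sources used here do not give the number of animals in a library.

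The niche of the seminiferous cord speaks to germ cells largely through secreted and membrane-bound proteins. KIT ligand, encoded by Kitl, is made by Sertoli cells and acts on the receptor tyrosine kinase KIT of migrating germ cells and differentiating spermatogonia. The chemokine CXCL12 attracts and retains cells that carry CXCR4, while ACKR3 binds the same chemokine and removes it. Fibroblast growth factors act with heparan sulfate on the FGF receptors. FGF9 supports the male path of the fetal gonad, and FGF2 is a standard supplement of spermatogonial stem cell cultures. CSF1 is the growth factor of macrophages, which carry its receptor CSF1R.

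Cells were assigned by unique molecular identifiers (UMIs, 1 per captured RNA molecule). A Sertoli cell had at least 3 UMIs of Amh, Sox9, Cldn11 and Inha together and at most 2 of Col1a1, Col1a2, Col3a1 and Dcn. Stromal and peritubular myoid cells had at least 5 of these collagen UMIs, and myoid cells also at least 8 of Acta2, Myh11 and Tagln. None of the 9 genes was used in these rules. The classes held 2378, 2110 and 1510 Sertoli cells, 1497, 1595 and 1681 stromal cells and 653, 834 and 724 myoid cells in the wild-type, heterozygous and homozygous library, the order kept for every set of 3 values below. Germ cells were the authors' deposited cells in clusters A to E: 69 of Cdk2-WT (36 in A, 28 in B, 5 in C) and 72 of Cdk2-Y15S (6 in B, 8 in C, 37 in D, 21 in E), with none of Cdk2-HET. Cells with UMIs of at least 2 of Ddx4, Dazl and Mael (56, 35 and 62) stood in for germ cells where Cdk2-HET was needed. Of these 153 cells 57 were deposited germ cells, 8 also met the Sertoli rule, 6 the stromal, 1 the myoid and 5 the endothelial rule. This marker set kept the limit of 10% mitochondrial UMIs, which 45 of 69 Cdk2-WT and 37 of 72 Cdk2-Y15S deposited germ cells exceeded. By markers, 148 endothelial, 63 macrophage and 137 fetal Leydig cells were also set aside, of which 40 endothelial and 63 fetal Leydig cells also met the stromal rule and 37 fetal Leydig cells the Sertoli rule.

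The libraries held 4403 to 5061 cells with a median of 5570 to 5908 UMIs, and 4184 to 4755 cells were kept. Median depth was alike in the large somatic classes (4954 to 6298 UMIs) and higher in the deposited germ cells (16650 and 18460). Markers outside the rules followed the class names: a list of 9 further Sertoli genes, all detected, summed to 9090, 9215 and 9174 CPM (UMIs of a gene divided by all UMIs of the class and scaled to 1000000) in Sertoli cells and 386 to 539 in stromal cells. Pericyte markers (6 of 6 detected in stromal and myoid cells) summed to 55.04 to 82.5 CPM there, endothelial markers to 50.9 to 167.9, and lymphocyte markers to at most 2.19 in the 3 large classes. Germ cell markers summed to 2352 and 2103 CPM in the deposited germ cells. Cluster C stood apart, with collagen rule genes at 1093 CPM in its Cdk2-WT cells and 1668 in its Cdk2-Y15S cells, against 165 and 360 over all germ cells, so values that rest on it are given with and without it. Any 2 libraries shared 27 to 32 cell barcodes. RNA of other cells in a droplet cannot be told apart from RNA of the cell itself, so the level of class-defining genes is given beside low values.

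Tests between classes used summed UMIs per library and class, so the 3 libraries act as replicates of a class, and a class difference that varies with genotype counts as spread. Nothing says that each library came from separate animals beyond its genotype, so the p-values measure the spread between these libraries. A gene was called when edgeR's quasi-likelihood test gave an adjusted p under 0.05 (Benjamini-Hochberg over 14501 genes) and a difference of at least 2-fold. Values for a class are CPM with exact Poisson 95% intervals, which cover counting error only.

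Sertoli cells carried most of the Kitl RNA. Kitl (ENSMUSG00000019966, chr10:100015630-100100416, plus strand, GRCm38) stood at 131 CPM (125 to 137), 113 (108 to 119) and 142 (135 to 149) in the Sertoli cells of the 3 libraries. Stromal cells had 19.2, 18.3 and 21.7 CPM and myoid cells 3.77, 3.08 and 2.61. The lowest Sertoli library lay far above the highest stromal library, and the lowest stromal library above the highest myoid library. Kitl was higher in Sertoli than in stromal cells (log2 2.58, SE 0.118, edgeR adjusted p = 1.10e-10) and higher in stromal than in myoid cells (log2 2.62, SE 0.202, edgeR adjusted p = 3.84e-07). Sertoli cells held 89.9% (88.6 to 91.1), 83.9% and 76.7% of all Kitl UMIs of a library, and they were 50.01%, 44.4% and 36.1% of its kept cells.

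Kitl RNA was also present outside the Sertoli class. In stromal cells its level was 14.7%, 16.2% and 15.3% of the Sertoli level, while the Sertoli rule genes were at 2.17% to 6.89% of theirs (Amh 2.17%, 2.83% and 3.11%, Sox9 4.74%, 6.22% and 6.89%). With the collagen minimum raised to 10 UMIs the stromal values were 18.6, 16.8 and 19.0 CPM. Endothelial cells, which line the vessels, stood at 85.2 CPM (21 UMIs), 45.5 (25 UMIs) and 93.6 (42 UMIs), and Sertoli markers summed to 352 to 491 CPM there. Fetal Leydig cells had 9, 4 and 8 Kitl UMIs. The stromal and endothelial shares of all Kitl UMIs were 6.68%, 9.10% and 10.98% and 0.941%, 1.31% and 2.16%. Cells that met no class rule (125, 117 and 148) had 33, 100 and 183 Kitl UMIs, or 74.7, 112.1 and 151.5 CPM, beside 131, 113 and 142 in Sertoli cells. The 9 further Sertoli genes summed to 3912, 7100 and 7149 CPM in these unclassified cells, beside 9090, 9215 and 9174 in Sertoli cells. How many of them are Sertoli cells that the rule missed was not tested.

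At least 1 Kitl UMI was found in 51.5%, 45.9% and 54.6% of Sertoli cells, against 8.62%, 8.59% and 9.22% of stromal cells. After thinning each cell to 3000 UMIs the shares were 30.9%, 27.7% and 33.6% in Sertoli cells and 4.99%, 4.74% and 4.91% in stromal cells. Over thinned Sertoli cells the variance of Kitl was 1.07, 1.02 and 1.10 times the mean, where counting alone gives a variance equal to the mean. Sertoli cells in cycle (at least 2 UMIs of Mki67, Top2a, Cdk1 and Ccnb1, a split chosen after the data were seen) had 129, 119 and 154 CPM, and those with none of these UMIs 133, 105 and 134. At the edge of the class, cells with 3 Sertoli UMIs had 127 CPM of Kitl and cells with 2, just outside it, 106.

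The receptor of this ligand stood at its highest levels in fetal Leydig and germ cells. Kit (the partner of Kitl, not a member of the set) stood at 35.5 CPM (43 UMIs) in wild-type germ cells and 60.7 (85 UMIs) in homozygous germ cells. Fetal Leydig cells had 103, 121 and 107 CPM. Endothelial cells had 16.2, 18.2 and 15.6 CPM from 4, 10 and 7 UMIs, macrophages 1, 5 and 5 UMIs, and stromal cells 3.22, 5.78 and 6.83 CPM. The stromal cells, among them 63 that also met the fetal Leydig rule, held 25.3%, 58.5% and 35.8% of all Kit UMIs. Kit was higher in germ than in Sertoli cells (log2 5.17, SE 0.297, edgeR adjusted p = 5.10e-09) and than in stromal cells (log2 2.65, edgeR adjusted p = 8.83e-07). A Kit UMI was found in 40.6% and 59.7% of germ cells and in 0.421% of Cdk2-WT Sertoli cells, at median depths of 16650, 18460 and 6160 UMIs. By cluster Kit was at 23.6 CPM in A, 45.6 and 33.7 in the Cdk2-WT and Cdk2-Y15S cells of B, 56.8 and 65.2 in C, 74.75 in D and 50.3 in E, and among the intervals of these values only those of A (12.9 to 39.5) and D (54.9 to 99.4) did not overlap. Kitl itself was low in germ cells, at 10.7 CPM (13 UMIs) and 5.00 (7 UMIs), and 11 of the 13 Cdk2-WT UMIs were in cluster A.

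**Figure D1:**
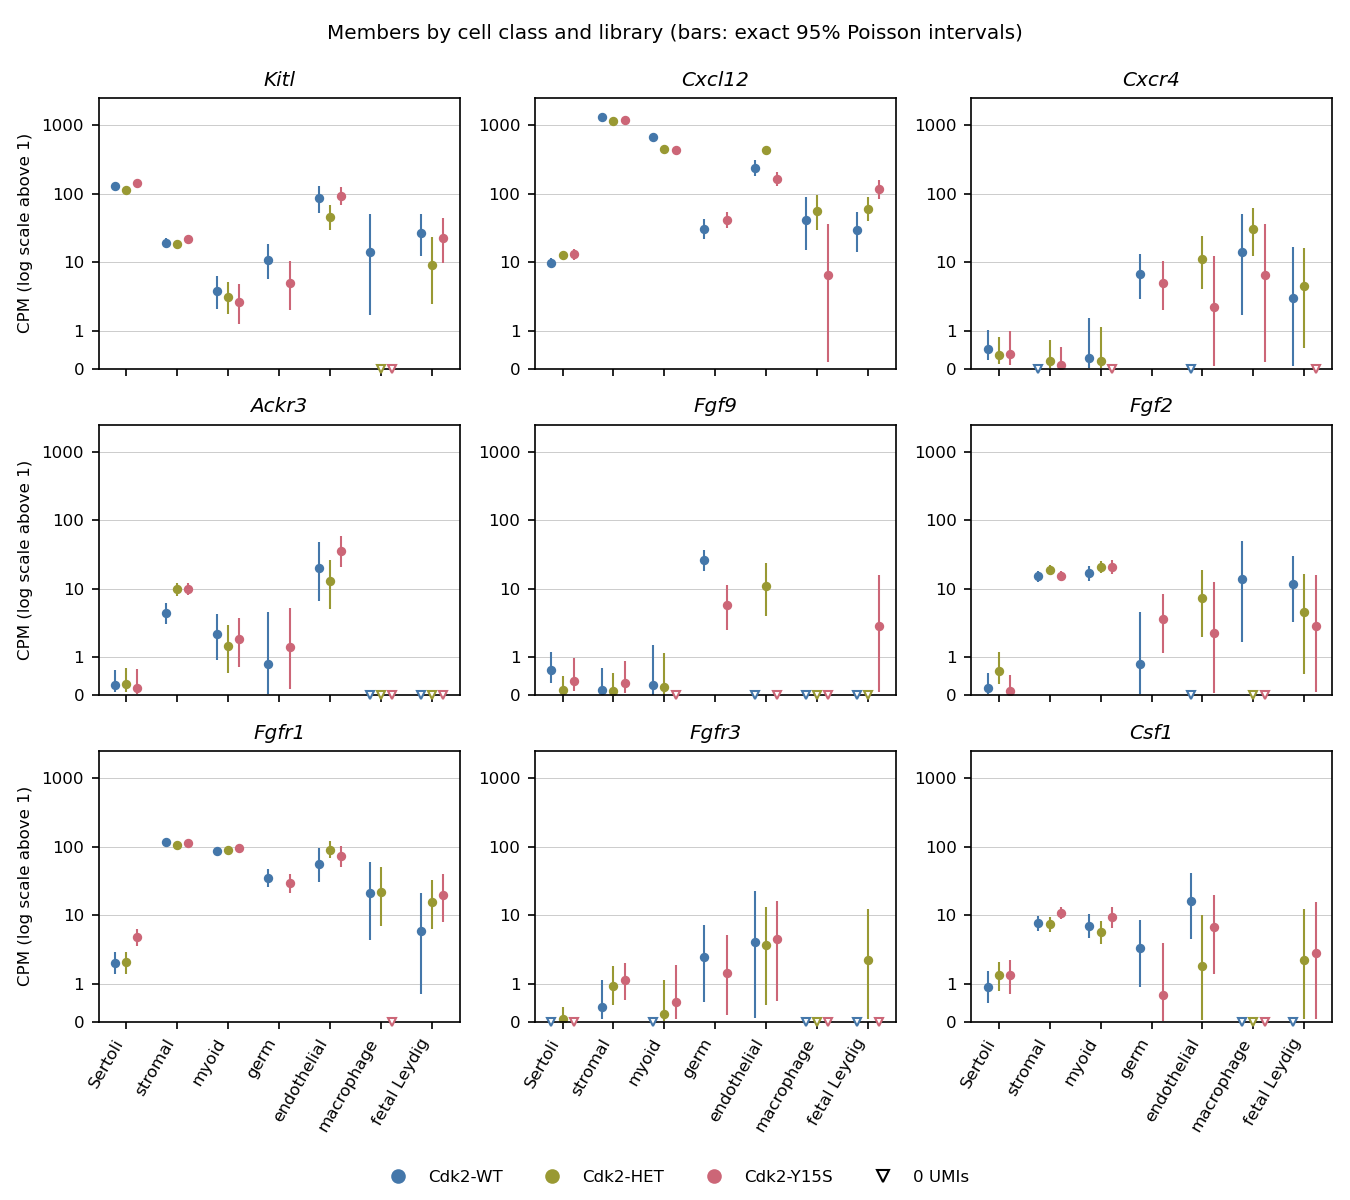
CPM of each member (log scale above 1 CPM, 0 at the base) in 7 cell classes, with 1 point per library and bars for exact 95% Poisson intervals; open triangles mark 0 UMIs, and Cdk2-HET has no deposited germ cells. Kitl is highest in Sertoli cells, Cxcl12 in stromal cells, Fgf9 in germ cells, and Fgfr1 lies above 80 CPM in stromal and myoid cells of all 3 libraries.

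Cxcl12 was a stromal and myoid transcript. Cxcl12 (ENSMUSG00000061353, chr6:117168535-117181367, plus strand) stood at 1325, 1134 and 1211 CPM in stromal cells and 664, 450.0 and 434 in myoid cells. Sertoli cells had 9.85, 12.5 and 13.0 CPM. Every stromal library lay above every myoid library, and Cdk2-WT was the highest of both classes. The test gave a higher level in stromal than in myoid cells (log2 1.23, SE 0.151, edgeR adjusted p = 3.31e-05) and a lower level in Sertoli cells than in stromal cells (log2 -6.82, SE 0.196, edgeR adjusted p = 1.18e-12). Cxcl12 in Sertoli cells was 0.743%, 1.10% and 1.07% of its stromal level, and the collagen rule genes there were at 0.628% to 1.07% of theirs, a range that overlaps it, although these genes were used to keep stromal cells out of the class.

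The sequence before the start of Cxcl12 is shown beside that of Ackr3, since the ligand and its scavenging receptor were both higher in stromal than in Sertoli and in myoid cells. Each is the 250 bases before the start site in RefSeq (GRCm38.p6), 5′ to 3′ on the plus strand, and each ends at the base before the gene's annotated start. Capitals mark matches, on either strand, to the GC box GGGCGG, the CCAAT box CCAAT, the TATA box TATAAA and the GATA motif GATAAG.
Cxcl12, chr6:117168285-117168534: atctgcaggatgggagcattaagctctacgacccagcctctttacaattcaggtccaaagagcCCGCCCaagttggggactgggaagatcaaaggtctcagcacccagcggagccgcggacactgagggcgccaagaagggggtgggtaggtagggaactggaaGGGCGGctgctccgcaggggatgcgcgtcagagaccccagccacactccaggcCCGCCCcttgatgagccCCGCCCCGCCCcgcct
Ackr3, chr1:90203730-90203979: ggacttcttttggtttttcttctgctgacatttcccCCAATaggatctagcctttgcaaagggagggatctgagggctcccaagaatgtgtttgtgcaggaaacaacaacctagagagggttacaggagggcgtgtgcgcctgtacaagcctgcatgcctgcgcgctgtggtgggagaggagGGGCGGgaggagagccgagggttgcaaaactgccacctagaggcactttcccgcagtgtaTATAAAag
The Cxcl12 window held 5 GC box matches, some of them overlapping, and none of the other motifs, with a GC content of 64.4%. The Ackr3 window held 1 GC box, 1 CCAAT box and 1 TATA box match, the last of them 2 bases before the end of the window, with a GC content of 54.0%. Among 32851 windows of this length, 32.7% held a GC box, 33.8% a CCAAT box, 12.4% a TATA box and 6.55% a GATA motif, and the median GC content was 52.4%. A match describes the letters only. RefSeq windows were found for 8 of the 9 members, with none for Fgfr1.

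Within the stromal class the number of Cxcl12 UMIs varied widely from cell to cell. After thinning, stromal cells had a median of 3 Cxcl12 UMIs in each library, a 90th percentile of 9 and highest values of 22, 20 and 25, while 12.03%, 15.7% and 17.2% of cells had none. The variance was 2.97, 3.35 and 3.33 times the mean, against 1.05, 1.06 and 1.06 for Fgfr1 in the same cells. Myoid cells had a median of 2, 1 and 1 Cxcl12 UMIs, and 20.7%, 31.9% and 36.1% had none. Stromal cells in cycle had 1148, 929 and 964 CPM of Cxcl12, below the 1404, 1227 and 1281 CPM of those without cycling UMIs, in each of the 3 libraries. In myoid cells the same split gave 518, 427 and 463 CPM against 770, 472 and 419, so Cdk2-WT and Cdk2-HET lay lower in cycle and Cdk2-Y15S did not.

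**Figure D2:**
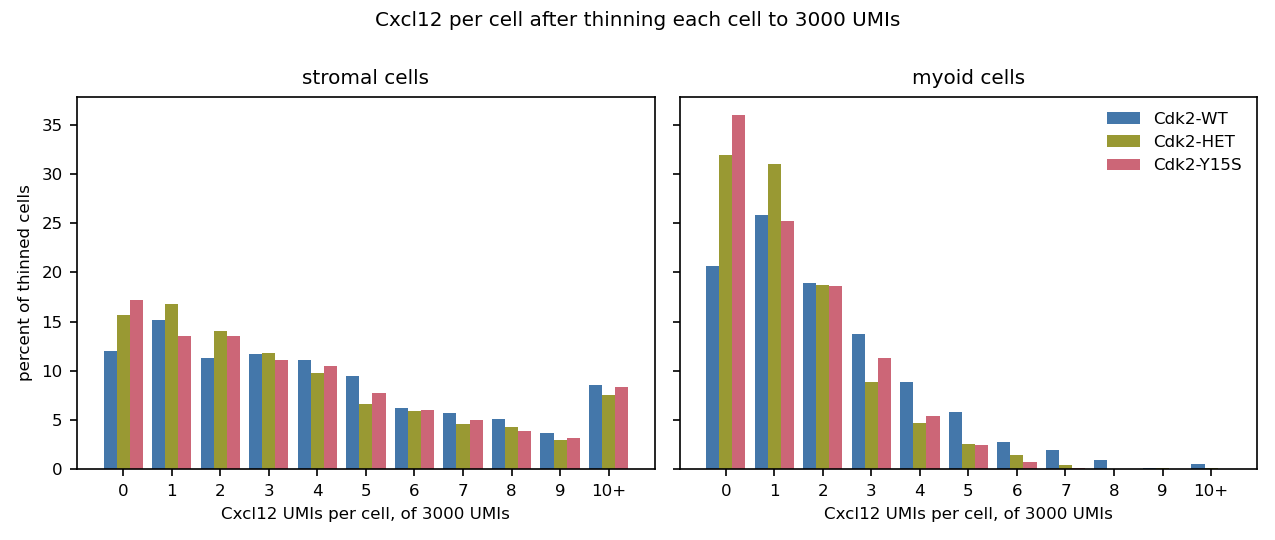
Percent of cells by number of Cxcl12 UMIs after thinning each cell to 3000 UMIs, in stromal and myoid cells, with 1 bar per library and 10 or more UMIs in the last position. Stromal cells reach a median of 3 UMIs in each library, while the share of myoid cells with 0 is 20.7% in Cdk2-WT, 31.9% in Cdk2-HET and 36.1% in Cdk2-Y15S.

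Germ cells had little Cxcl12 apart from cluster C. The deposited germ cells stood at 30.5 CPM (37 UMIs) for Cdk2-WT and 41.4 (58 UMIs) for Cdk2-Y15S, which is 2.30% and 3.42% of the stromal level, with the collagen rule genes at 1.56% to 4.55% of theirs. By cluster it was at 15.2 CPM in A, 18.2 in the Cdk2-WT cells of B, 255 and 140 in the Cdk2-WT and Cdk2-Y15S cells of C (18 and 15 UMIs), 49.3 in D and 23.2 in E, with 0 UMIs in the 6 Cdk2-Y15S cells of B. The test called Cxcl12 higher in germ than in Sertoli cells (log2 1.15, SE 0.265, edgeR adjusted p = 0.0017). The call was lost without cluster C (log2 0.65, edgeR adjusted p = 0.097) and without the Cdk2-Y15S library (log2 0.80, edgeR adjusted p = 0.054). Endothelial cells had 239, 439 and 165 CPM of Cxcl12, beside collagen rule genes at 1180, 3374 and 1170 CPM, and the part of stromal RNA in these values was not tested.

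Few UMIs of Cxcr4, the signalling receptor of CXCL12, were found in any class. Cxcr4 (ENSMUSG00000045382, chr1:128588199-128592293, minus strand) had 18, 21 and 13 UMIs in the 3 libraries. Germ cells held 8 UMIs in 6 Cdk2-WT cells (6.60 CPM, 2.85 to 13.0) and 7 UMIs in 7 Cdk2-Y15S cells (5.00 CPM, 2.01 to 10.3). Stromal cells had 0, 2 and 1 UMIs, where 0 UMIs allow up to 0.387 CPM by a limit of 3 UMIs and 0.475 by the exact interval, myoid cells 1, 1 and 0, and Sertoli cells 8, 5 and 4. Both germ libraries lay above every Sertoli library (0.522, 0.353 and 0.382 CPM). Cxcr4 was called higher in germ than in Sertoli cells (log2 3.34, SE 0.678, edgeR adjusted p = 6.50e-04) and than in stromal cells (edgeR adjusted p = 1.23e-04), where the few stromal UMIs leave the size undefined.

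Cxcr4 UMIs were also seen in macrophages, which move along chemokines, with 2, 7 and 1 UMIs (13.9, 30.1 and 6.54 CPM) in 18, 29 and 16 cells, and in endothelial cells with 0, 6 and 1. Of the germ clusters, A held 4, the Cdk2-WT cells of B 4, the Cdk2-Y15S cells of B 1, D 5 and E 1, with 0 in the 13 cells of C. Macrophage markers summed to 119 CPM in the Cdk2-WT germ cells (3 of 7 detected) and 42.8 in those of Cdk2-Y15S (4 of 7), with C1qb and Adgre1 at 0 in both, against 11490 to 17850 CPM in macrophages, and their part in germ cell Cxcr4 was not tested. The difference between Sertoli and stromal cells was not called (log2 1.66, edgeR adjusted p = 0.090), though it was with the collagen minimum at 10 UMIs (log2 2.07, edgeR adjusted p = 0.047) and with endothelial, macrophage, Leydig and germ marker cells left out (log2 2.61, edgeR adjusted p = 0.045).

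Ackr3, the scavenging receptor, was found in the cells that carried Cxcl12 and in endothelial cells. Ackr3 (ENSMUSG00000044337, chr1:90203980-90216751, plus strand) stood at 4.38 CPM (34 UMIs), 9.77 (93) and 9.99 (98) in stromal cells and 2.15 (8 UMIs), 1.44 (7) and 1.83 (7) in myoid cells. Endothelial cells had 20.3, 12.8 and 35.7 CPM from 5, 7 and 16 UMIs. Sertoli cells had 4, 4 and 2 UMIs and germ cells 1 and 2, and none were seen in macrophages or fetal Leydig cells. Ackr3 was higher in stromal than in myoid cells (log2 2.13, SE 0.343, edgeR adjusted p = 4.08e-04) and lower in Sertoli than in stromal cells (log2 -4.98, SE 0.369, edgeR adjusted p = 2.46e-08). Stromal cells held 65.4%, 86.1% and 81.0% of its UMIs. Dpp4, the protease that trims CXCL12, had 5, 8 and 6 UMIs in endothelial cells.

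Among the Sertoli, stromal, myoid and germ classes, Fgf9 was highest in germ cells. Fgf9 (ENSMUSG00000021974, chr14:58070547-58112720, plus strand, overlapped by Gm17109 on the opposite strand) had 32 UMIs in 22 of 69 Cdk2-WT germ cells (26.4 CPM, 18.0 to 37.2) and 8 UMIs in 8 of 72 Cdk2-Y15S germ cells (5.71 CPM, 2.47 to 11.3). Sertoli cells, the source usually named in the fetal testis, had 10, 2 and 4 UMIs (0.652, 0.141 and 0.382 CPM) in 2378, 2110 and 1510 cells. Stromal cells had 1, 1 and 3 UMIs and macrophages none. Cells that met no class rule had 5 UMIs, all in Cdk2-Y15S (4.14 CPM), inside the germ cell interval of that library. Endothelial cells had 0, 6 and 0 UMIs (10.9 CPM in Cdk2-HET), and none once cells with germ markers were left out. Both germ libraries lay above every Sertoli, stromal, myoid and macrophage library. Fgf9 was called higher in germ than in Sertoli cells (log2 4.46, SE 0.578, edgeR adjusted p = 1.28e-05) and than in stromal cells (edgeR adjusted p = 9.95e-06). Germ cells, 69 of the 5061 cells in Cdk2-WT, held 69.6% of its 46 Fgf9 UMIs, and those of Cdk2-Y15S 38.1% of 21.

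Within the germ cells Fgf9 lay highest in the clusters of Cdk2-WT cells. It stood at 21.9 CPM (13 UMIs) in A and 31.0 (17 UMIs) in the Cdk2-WT cells of B, with 2 UMIs in the Cdk2-WT cells of C. The Cdk2-Y15S cells had 1 UMI in B, 0 in C, 5 in D (7.95 CPM) and 2 in E (3.87 CPM). The intervals of A (11.7 to 37.4) and D (2.58 to 18.6) overlapped, while those of the Cdk2-WT cells of B (18.1 to 49.6) and E (0.469 to 14.0) did not. Over all deposited Cdk2-WT germ cells, with no mitochondrial limit, Fgf9 stood at 26.4 CPM. Among cells with germ markers, where the limit was kept, there were 7 Fgf9 UMIs in Cdk2-WT (12.2 CPM), 13 in Cdk2-HET (33.0 CPM) and 5 in Cdk2-Y15S (5.90 CPM). Of the 13 in Cdk2-HET, 6 came from 1 cell that also met the endothelial rule, and with the 5 such cells left out 7 UMIs remained (25.0 CPM, 10.04 to 51.5).

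Fgf2 was found in stromal and myoid cells alike. Fgf2 (ENSMUSG00000037225, chr3:37348346-37410108, plus strand) stood at 15.3, 18.9 and 15.4 CPM in stromal cells (119, 180 and 151 UMIs) and 16.7, 20.9 and 20.9 in myoid cells (62, 102 and 80 UMIs). Sertoli cells had 3, 9 and 1 UMIs and germ cells 1 and 5. The stromal and myoid ranges overlapped, and the test did not separate them (log2 -0.26, SE 0.196, edgeR adjusted p = 0.41). Fgf2 was lower in Sertoli than in stromal cells (log2 -5.72, SE 0.306, edgeR adjusted p = 6.40e-10) and than in myoid cells (log2 -5.98, SE 0.318, edgeR adjusted p = 6.77e-10). Its gene overlaps Nudt6 on the opposite strand, and no source used here says whether strand was used in counting. The call of Fgf2 in germ over Sertoli cells (log2 2.43, edgeR adjusted p = 0.025) rested on 6 germ UMIs, 3 of them in cluster C, and was lost without that cluster (log2 1.56, edgeR adjusted p = 0.25) and without Cdk2-Y15S (log2 0.68, edgeR adjusted p = 0.73).

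Fgfr1 RNA, for the receptor that most mesenchymal cells use, was high in stromal and myoid cells, lower in germ cells and lowest in Sertoli cells. Fgfr1 (ENSMUSG00000031565, chr8:25513654-25575718, plus strand) stood at 116, 106 and 112 CPM in stromal cells and 87.3, 88.8 and 95 in myoid cells. Germ cells had 35.5 (43 UMIs) and 29.3 (41 UMIs), and Sertoli cells 2.02, 2.05 and 4.77. The groups did not overlap. Stromal and myoid cells were not separated by the test (log2 0.28, SE 0.143, edgeR adjusted p = 0.20). Germ cells were higher than Sertoli cells (log2 3.03, SE 0.303, edgeR adjusted p = 1.04e-06) and lower than stromal cells (log2 -2.40, SE 0.227, edgeR adjusted p = 5.09e-07).

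The Fgfr1 level of germ cells was 30.6% and 26.2% of the stromal level. In the same cells the collagen rule genes were at 1.56% to 4.55% of theirs, and 8 stromal markers outside the rules at 1.14% to 6.09%. The part of stromal RNA in the germ cell Fgfr1 values was not tested. In Sertoli cells the Fgfr1 level was 1.75%, 1.93% and 4.26% of the stromal level, beside 0.628% to 1.07% for the collagen rule genes. These genes were used to keep stromal cells out of the Sertoli class, so their share there was limited by the rule. Of the stromal markers outside the rules, Igf1 was at 3.87%, 3.37% and 2.74% in Sertoli cells and the others at 0.71% to 1.67%. Germ cell Fgfr1 was spread over the germ clusters: 37.0 CPM in A, 31.0 in the Cdk2-WT cells of B, 30.2 in D and 29.0 in E, with 1 UMI in the 6 Cdk2-Y15S cells of B and 56.8 and 55.9 CPM in C from 4 and 6 UMIs. A Fgfr1 UMI was seen in 52.2% and 43.1% of germ cells and in 42.0%, 43.6% and 45.2% of the shallower stromal cells. Median depths were 16650 and 18460 UMIs in germ cells and 4954, 5617 and 5497 in stromal cells, so these shares are not at equal depth. Thinned stromal shares were 28.3%, 26.4% and 28.1%. Endothelial cells had 56.8, 91.1 and 73.5 CPM.

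Fgfr3 was close to the detection limit, with 10, 15 and 18 UMIs in the libraries (ENSMUSG00000054252, chr5:33721674-33737068, plus strand). Stromal cells held 3, 9 and 11 of these UMIs, germ cells 3 in Cdk2-WT and 2 in Cdk2-Y15S, myoid cells 0, 1 and 2, and Sertoli cells 0, 1 and 0. It was called lower in Sertoli than in stromal cells (edgeR adjusted p = 5.69e-04) and in Sertoli than in germ cells (edgeR adjusted p = 0.0029), the latter call lost without Cdk2-WT (edgeR adjusted p = 0.068). The size of these differences is not defined by 1 Sertoli UMI.

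**Figure D3:**
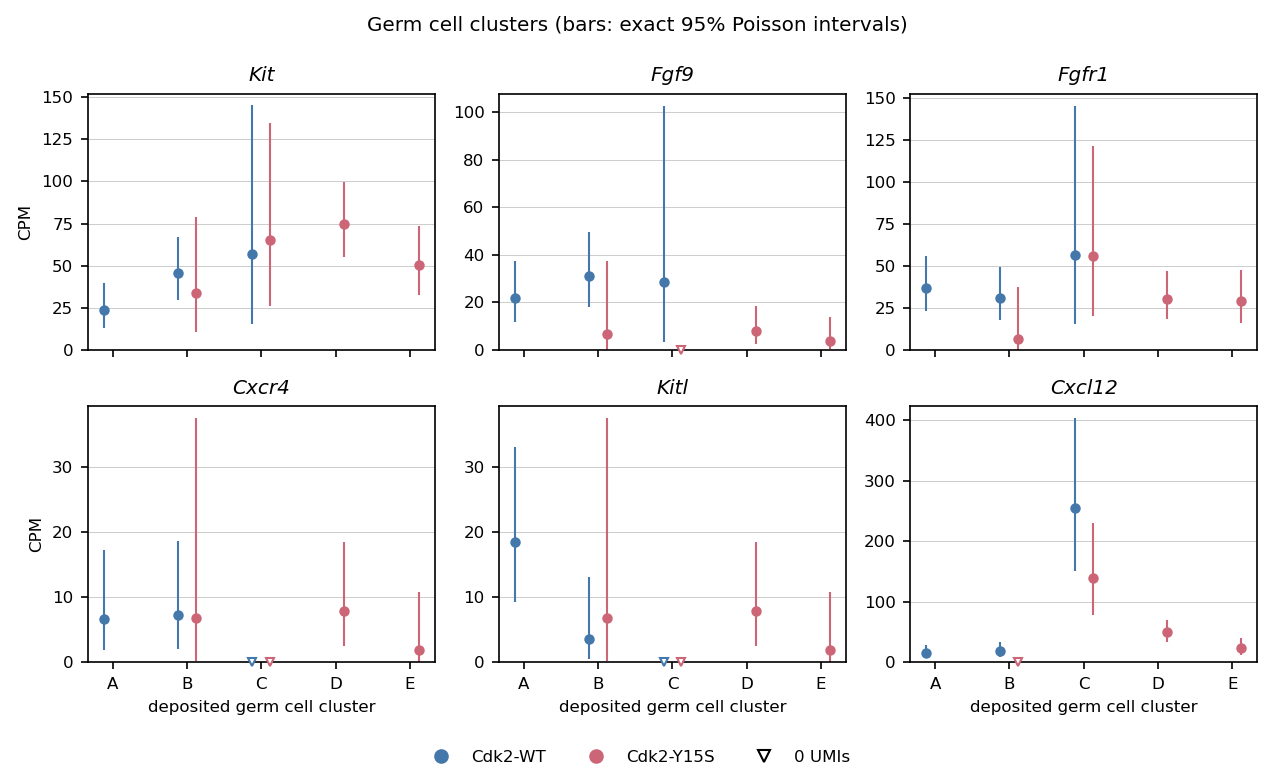
CPM of Kit, Fgf9, Fgfr1, Cxcr4, Kitl and Cxcl12 in the deposited germ cell clusters A to E, with 1 point per library and cluster, bars for exact 95% Poisson intervals, and a separate linear axis for each gene. Fgf9 stands at 21.9 and 31.0 CPM in the Cdk2-WT cells of A and B and at 3.87 to 7.95 CPM in D and E, Fgfr1 is present in every cluster, and Cxcl12 is highest in C.

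Csf1 was found at low levels in stromal and myoid cells, while nearly all RNA of its receptor lay in macrophages. Csf1 (ENSMUSG00000014599, chr3:107741048-107760469, minus strand) stood at 7.60, 7.35 and 10.8 CPM in stromal cells (59, 70 and 106 UMIs) and 7.002, 5.74 and 9.40 in myoid cells (26, 28 and 36 UMIs). Sertoli cells had 0.913, 1.34 and 1.34 CPM and germ cells 4 and 1 UMIs. The stromal and myoid ranges overlapped (log2 0.20, edgeR adjusted p = 0.62), and Sertoli cells were lower than stromal cells (log2 -2.94, SE 0.264, edgeR adjusted p = 2.10e-07). Csf1r stood at 472, 404 and 392 CPM in macrophages, which held 93.2%, 92.2% and 96.8% of its UMIs, with 0 in the deposited germ cells. Macrophages had no Csf1 UMI. Il34, the other ligand of CSF1R, had at most 6 UMIs in any class and library.

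Set against all genes, the members lay to the stromal side. Of the 9 members, 1 (Kitl) was higher and 6 were lower in Sertoli than in stromal cells, where 14.8% and 20.7% of all genes tested were called (35.5% either way). Against myoid cells 1 was higher and 5 were lower in Sertoli cells (16.1% and 19.3% of all genes, 35.4% either way). Stromal cells were higher than myoid cells for 3 (Kitl, Cxcl12, Ackr3) and lower for 0, beside 5.76% and 4.39% of all genes (10.2% either way). In germ against Sertoli cells 6 were higher and 1 (Kitl) lower (22.7% and 23.2%, 45.9% either way), and in germ against stromal cells 2 (Cxcr4, Fgf9) were higher and 6 lower (23.1% and 27.6%, 50.7% either way). The median log2 difference of the members was -4.39, -2.73, 0.28, 2.43 and -2.40 in these comparisons, beside -0.01, 0.04, 0.06, -0.05 and -0.12 for all genes. The germ and Sertoli comparisons share sums, so they are not independent of each other.

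Other fibroblast growth factor genes were spread over the Sertoli, stromal, myoid and germ classes. Of the 20 other FGF family genes listed, 8 could be tested. In Sertoli against stromal cells 3 (Fgf11, Fgf13 and Fgf18) were higher and 3 (Fgf7, Fgf10 and Fgf12) lower, with a list median of log2 0.10, beside 14.8% and 20.7% of all genes. Fgf13, an intracellular family member, stood at 55.8, 43.1 and 43.0 CPM in Sertoli cells, Fgf18 at 37.2, 25.7 and 21.2 and Fgf11 at 10.95, 11.7 and 10.97. Fgf7, a mesenchymal ligand for epithelial receptors, stood at 20.1, 26.5 and 22.9 CPM in stromal cells, and Fgf12 at 22.1, 14.6 and 15.9 in myoid cells. In germ against Sertoli cells Fgf3, Fgf8 and Fgf12 were higher and Fgf11, Fgf13 and Fgf18 lower (list median log2 -0.17), beside 22.7% and 23.2% of all genes.

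Of 7 FGF receptor and coreceptor genes, 5 were tested, and 0 were higher and 4 (Fgfr1, Fgfr2, Fgfr3 and Fgfr4) lower in Sertoli than in stromal cells (list median log2 -2.87), where 14.8% and 20.7% of all genes were called. The adaptor genes Frs2 and Frs3, which stood on the same list, were not called there. Fgfrl1, which lacks the kinase domain, stood in Sertoli cells at 24.1, 19.3 and 23.3 CPM beside 13.4, 11.5 and 15.3 in stromal cells. Fgfr2 stood at 2.22, 0.706 and 2.29 CPM in Sertoli cells, 9.92, 9.24 and 11.7 in stromal cells and 9.43, 12.1 and 13.1 in myoid cells, with 9 UMIs in Cdk2-WT and 1 in Cdk2-Y15S germ cells. Fetal Leydig cells stood higher than these classes, at 38.1 to 59.2 CPM for Fgfrl1 (58 UMIs) and 31.0 to 38.1 for Fgfr2 (40 UMIs). Fgfr4 was at 8.86 to 13.4 CPM there (13 UMIs), beside 1.68 to 2.55 in stromal cells. Of the 137 fetal Leydig cells, 63 also met the stromal rule and 37 the Sertoli rule. Klb, a coreceptor of endocrine FGFs, had 5 and 1 UMIs in germ cells and none in Sertoli, stromal or myoid cells.

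Genes that FGF and ERK signalling is known to induce were read in the same classes. Of 13 such genes, 6 were higher and 4 lower in germ than in Sertoli cells, where 22.7% and 23.2% of all genes were called. Among the higher were the transcription factor gene Etv4 (log2 6.96, edgeR adjusted p = 2.71e-08), the feedback inhibitor gene Spry1 (log2 3.59) and Etv5 (log2 2.42). The lower were Ier3 (log2 -2.28), Fos (log2 -2.12), Egr1 (log2 -1.88) and Dusp6 (log2 -1.14), and the list median was log2 0.47. In Sertoli against stromal cells 1 was higher (Dusp6, log2 2.92) and 5 lower (among them Spry1, log2 -4.62), with a list median of -0.05 and 14.8% and 20.7% of all genes called. In stromal against myoid cells 1 was higher and 8 lower, with Etv1 (log2 -3.24), Etv4 (log2 -2.80) and Spry4 (log2 -2.76) showing the largest differences and a list median of -1.26, where 5.76% and 4.39% of all genes were called. Heparan sulfate proteins, which hold FGFs at the cell surface, were split: Sdc4 was higher in Sertoli than in stromal cells (log2 3.81) and Gpc3 lower (log2 -5.68), with 2 of 10 higher and 5 lower (list median log2 -1.34), beside 14.8% and 20.7% of all genes.

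Other niche ligands were read beside the members. Of 17 such genes, 15 were tested, and 4 were higher and 10 lower in Sertoli than in stromal cells, 5 higher and 8 lower than in myoid cells, and 0 higher and 13 lower in germ than in stromal cells, with list medians of log2 -3.41, -2.60 and -2.08. The shares of all genes higher and lower in these comparisons were 14.8% and 20.7%, 16.1% and 19.3%, and 23.1% and 27.6%. Gdnf, the self-renewal factor of spermatogonial stem cells (log2 2.68), Inhbb (log2 3.82) and Dhh (log2 5.03) lay on the Sertoli side with Kitl. Inhba (log2 -6.62), Igf2 (log2 -6.61) and Nrg1 (log2 -6.56) lay on the stromal side with Cxcl12. Cxcl14, another chemokine, was instead highest in germ cells of Cdk2-WT, at 78.3 CPM (95 UMIs) against 9.99 (14 UMIs) in the homozygote. Myoid cells carried it too. Cxcl14 was lower in stromal than in myoid cells (log2 -3.29, edgeR adjusted p = 2.86e-04) and in Sertoli than in myoid cells (log2 -7.35). In germ against Sertoli cells it was at log2 8.09.

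The genes whose levels ran closest to a member over 18 sums of class and library (Pearson r of log2 of CPM plus 5, among 11762 genes) were Fbln2 (r = 0.936), Smco4 (0.911) and Amotl2 (0.904) for Kitl and Pdgfra (0.985), Mfap2 (0.983) and Matn2 (0.981) for Cxcl12. For Fgf2 they were Pxylp1 (0.952), Gm14396 (0.947) and Cybrd1 (0.944), and for Fgfr1 Col13a1 (0.975), Sh3pxd2a (0.974) and Tubb6 (0.969). Sums of 1 class share the rule that chose their cells and those of 1 genotype share a library, so these values describe shared distribution over classes. The other members had too few UMIs for this measure.

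The members' RNA was then compared between genotypes within each class. Each genotype had a lone library, so these differences were not tested, have no replicate check and describe the libraries. Ratios of CPM are given as log2 after adding 0.5 UMI to either library's total, with exact conditional binomial intervals for counting error, and a gene was set apart when it had at least 50 UMIs over both libraries and differed by at least 1.5-fold. The comparisons of Cdk2-Y15S and of Cdk2-HET share the Cdk2-WT library. Fewer molecules per cell and fewer expressing cells cannot be told apart in summed UMIs. Trimmed-mean scaling moved the share of genes past the fold that were higher from 70.0% to 54.3% in Cdk2-Y15S Sertoli cells, from 43.7% to 58.9% in its germ cells and from 67.8% to 53.5% in Cdk2-HET myoid cells, and turned the direction of no member ratio described here as past the fold.

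Kitl in Sertoli cells differed little between genotypes. Relative to Cdk2-WT it was at log2 0.12 (0.02 to 0.22) in Cdk2-Y15S and -0.21 (-0.30 to -0.11) in Cdk2-HET. The values were in opposite directions and below 1.5-fold. Amh, one of the genes of the Sertoli rule, stood at 820, 879 and 432 CPM in the same cells and Cldn11 at 67.7, 83.0 and 141.4. Of the 3 members with 50 UMIs in Sertoli cells, Fgfr1 alone was past 1.5-fold, at 2.02 CPM (31 UMIs) in wild type and 4.77 (50 UMIs) in the homozygote (log2 1.23, 0.56 to 1.93), where 7.89% of all genes tested were higher and 3.39% lower by this rule (11.3% either way). Collagen rule genes in Sertoli cells went from 45.9 to 90.04 CPM between the same libraries, and their part in the Fgfr1 value was not tested. In Cdk2-HET 0 of 3 members were past the fold in Sertoli cells (3.53% of all genes were higher and 2.12% lower, 5.65% either way), with Fgfr1 at 2.05 CPM.

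Ackr3 was higher in the stromal cells of both libraries that carry the YS allele. It went from 34 UMIs in Cdk2-WT to 93 in Cdk2-HET (log2 1.14, 0.58 to 1.77) and 98 in Cdk2-Y15S (log2 1.18, 0.61 to 1.80), and was the only one of 6 members past the fold in either comparison, where 4.32% and 7.1% of all genes were higher, 2.36% and 3.62% lower, and 6.68% and 10.7% past it either way. The share of stromal cells with an Ackr3 UMI went from 2.20% to 5.46% and 5.29%, and after thinning from 1.19% to 2.67% and 2.94%. Over the 10 alternatives tried the ratio was 1.00 to 1.18 in Cdk2-HET and 1.04 to 1.18 in Cdk2-Y15S. Collagen rule genes in stromal cells stood at 6293, 8369 and 9599 CPM and the 6 endothelial markers at 147, 167 and 168, and their part in the Ackr3 values was not tested. Kit in stromal cells moved the same way, from 3.22 CPM (25 UMIs) to 5.78 (55) and 6.83 (67), log2 0.83 and 1.07, beside fetal Leydig markers at 236, 375 and 254.5 CPM in the same stromal cells. With endothelial, macrophage, Leydig and germ marker cells left out, stromal Kit was at 1.19 (9 UMIs), 2.33 (21) and 4.24 CPM (40), log2 0.93 (-0.22 to 2.28) and 1.77 (0.77 to 3.06).

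Cxcl12 was lower in myoid cells of both Cdk2-HET and Cdk2-Y15S. From 664 CPM (638 to 691) in Cdk2-WT it stood at 450.0 (431 to 469) in Cdk2-HET and 434 (414 to 456) in Cdk2-Y15S, ratios of log2 -0.56 (-0.65 to -0.48) and -0.61 (-0.70 to -0.52). It was the only one of 4 members past the fold in Cdk2-Y15S (4.67% of all genes were lower and 5.31% higher, 9.98% either way), and 0 of 4 were past it in Cdk2-HET (2.05% lower and 4.31% higher, 6.35% either way). Both ratios lie close to 1.5-fold: under the alternatives Cdk2-Y15S ran from -0.63 to -0.56 and Cdk2-HET from -0.62 to -0.54, so the side of the threshold depended on the choice and the direction did not. Myoid cells in cycle had 518, 427 and 463 CPM of Cxcl12, and those without cycling UMIs 770, 472 and 419, so the libraries lay further apart outside the cycle. Over all myoid cells stromal markers summed to 2334, 2784 and 2931 CPM and smooth muscle rule genes to 5367, 6143 and 6913. Macrophage markers summed to 69.5, 14.6 and 2.87 CPM. The part of these genes in the Cxcl12 difference was not tested.

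In stromal cells Cxcl12 was -0.22 in Cdk2-HET and -0.13 (-0.17 to -0.09) in Cdk2-Y15S on the log2 scale, the same direction at a smaller size. Fgf2 (0.30 and 0.00), Fgfr1 (-0.13 and -0.05) and Kitl (-0.07 and 0.18) stayed within 1.5-fold there, and Csf1 was at -0.05 and 0.50 (0.03 to 0.99). In myoid cells Fgf2 was at 0.32 in both, Fgfr1 at 0.02 and 0.12, and Csf1 at -0.29 and 0.42.

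**Figure D4:**
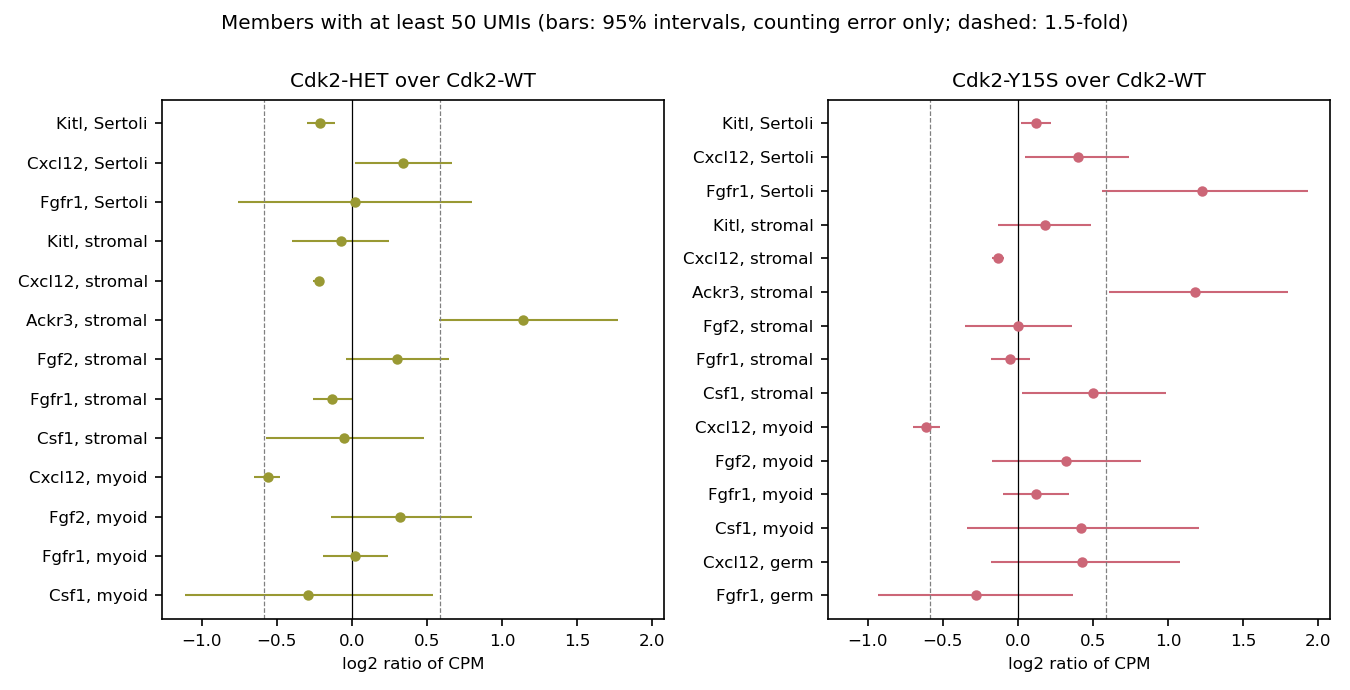
log2 ratio of CPM over Cdk2-WT for members with at least 50 UMIs in both libraries together, for Cdk2-HET and Cdk2-Y15S, with bars for 95% intervals of counting error and dashed lines at 1.5-fold. Ackr3 in stromal cells lies at 1.14 and 1.18 and Cxcl12 in myoid cells at -0.56 and -0.61, while Kitl in Sertoli cells lies at -0.21 and 0.12.

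In germ cells only Cxcl12 and Fgfr1 reached 50 UMIs, and 0 of 2 were past the fold (11.7% of all genes were higher and 15.1% lower, 26.8% either way). Fgfr1 was at log2 -0.28 and Cxcl12 at 0.43 (-0.18 to 1.08), the latter 0.98 without cluster C, -0.21 with 10% ambient RNA subtracted and -0.94 with equal weight given to clusters B and C. Fgf9 had 40 UMIs, under the minimum: 26.4 CPM in wild type against 5.71 in the homozygote (log2 -2.14, -3.54 to -1.06). In cells with germ markers no member reached 50 UMIs in Cdk2-HET and Cdk2-WT together, a comparison in which 5.41% of all genes were higher and 3.73% lower (9.14% past the fold either way). Fgf9 there was at log2 1.39 (0.01 to 3.00) in Cdk2-HET, from 13 against 7 UMIs. Without the 5 cells that also met the endothelial rule, among them the cell with 6 of the 13 UMIs, it was at 1.04 (-0.70 to 2.78), from 7 against 7 UMIs, an interval that includes 0. The Cdk2-WT level among all cells with germ markers was 12.2 CPM, beside 26.4 over all deposited Cdk2-WT germ cells. Of the deposited germ cells, 45 of 69 in Cdk2-WT and 37 of 72 in Cdk2-Y15S exceeded 10% mitochondrial UMIs. These were left out of the cells with germ markers. The part of this mitochondrial difference in the Fgf9 values was not tested.

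Among the partners, Kit was higher over all Cdk2-Y15S germ cells (log2 0.77, 0.23 to 1.34). The genotypes fill different clusters, and in the 2 clusters that both hold, given equal weight, the Kit ratio was -0.02. Cxcl14 was lower (log2 -2.93, -3.90 to -2.15, and -1.56 in the shared clusters). Of 11 FGF and ERK target genes with 50 UMIs in germ cells, 0 were higher and 4 lower in Cdk2-Y15S, among them Spry4 (37.9 and 12.1 CPM, log2 -1.62), Il17rd (51.9 and 28.6, log2 -0.86) and Spry1 (40.4 and 23.6, log2 -0.77), where 15.1% of all genes were lower; the list median was log2 -0.54 and that of all genes -0.02. In the shared clusters at equal weight Spry4 was at -2.03, Il17rd at -0.27 and Spry1 at 0.10. In Sertoli cells Fgf18 was lower in Cdk2-Y15S (log2 -0.81, -1.04 to -0.59), and Fos, an immediate early gene, was lower in Cdk2-HET (log2 -1.29) and Cdk2-Y15S (log2 -1.01). Of 11 other niche ligands in myoid cells, 3 were lower and 2 higher in Cdk2-Y15S, and 3 lower and 0 higher in Cdk2-HET, with Tgfb2 lower in both (log2 -1.77 and -1.88) and list medians of -0.49 and -0.31. Of all genes in myoid cells 4.67% were lower and 5.31% higher in Cdk2-Y15S, and 2.05% lower and 4.31% higher in Cdk2-HET.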

How the data were processed

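The members and gene lists were chosen with earlier results of these data known. The deposited files hold whole-number UMI counts per gene and cell for 3 libraries, made with Cell Ranger 2.1.0 and the mm10 build per the submitters' processing notes, which also name Seurat; germ cells and their clusters A to E are the authors' deposited assignment. Here cells were kept with at least 500 genes, at most 10% mitochondrial UMIs and no doublet call. Doublets were called by Scrublet in scanpy 1.11.5 (6% expected, 53 to 85 cells a library). Every deposited germ cell was kept in the germ class and its clusters. Cells chosen by germ markers had to pass these filters, deposited or not. Sums per library and class (11 sums) were tested with edgeR 4.0.16 (R 4.3.3) using trimmed-mean scaling, filterByExpr and the library as a block, since the classes of a library come from the same cell suspension. SE is the size of the log2 difference divided by the square root of F. Library totals were 28651691 to 32025077 UMIs. For shares, 95% limits were computed by the exact Clopper-Pearson method. The fit and the ratio interval were tested on simulated data.

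Genes named are the members, their direct partners, FGF ligands with at least 20 UMIs in a class, the 3 list members with the largest differences in a comparison used, and the 3 genes closest to each member with at least 500 UMIs. Cxcl14, Dpp4, Gdnf, Sdc4, Gpc3, Dhh, Inhbb, Il17rd and Spry1 in stromal cells, where outside that rule, were chosen after their values were seen. So were Fgf3, Fgf8, Fgf10, Frs2, Frs3, Igf1 and the FGF and ERK targets lower in germ than in Sertoli cells. The same holds for the cycling split, the lists without adaptors or members, and the results without cluster C or without endothelial rule cells. Alternatives were other cell filters and class rules, DESeq2 1.42.0, other scaling and filters, and each library left out in turn. Promoter windows came from RefSeq (GRCm38.p6) and gene positions from GENCODE M21; no proteins are shown. The aligner's counting strand was not given in the sources used here.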

Additional observations from a re-analysis of the deposited data

How the results depend on the processing

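Genotype comparisons rest on 1 library a genotype. No paired analysis was possible because the genotypes share no more than 1 replicate number. In the class tests the library is the block: with no replicate block 5131, 5105, 1417, 6689 and 7332 genes were called in Sertoli against stromal, Sertoli against myoid, stromal against myoid, germ against Sertoli and germ against stromal cells (5154, 5131, 1472, 6663 and 7349 with it), and no member's call changed. Leaving out a library in turn gave 919 (without Cdk2-HET) to 1657 (without Cdk2-WT) calls in stromal against myoid cells, and the other comparisons stayed within 1.5 times. Members with few UMIs changed sign where no call was made. Cxcr4 in stromal against myoid cells was at log2 0.19 with all deposited cells, 0.21 with doublets kept and -1.02 to 0.40 with a library left out. Fgf9 there was at -0.23 with the collagen minimum at 10, -0.06 with other cell types left out and -0.96 to 0.80 with a library left out. Csf1 in germ against Sertoli cells ran from -1.51 to 1.03 and Fgfr3 in germ against stromal cells from -0.14 to 2.20 with a library left out. Counted per member, comparison and alternative, 623 log2 differences kept their direction and call, 8 were reversed, 5 weaker and 2 stronger.

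The number of genes past the fold depended on the limits, by construction. In Cdk2-Y15S Sertoli, stromal, myoid and germ cells, 1248, 1180, 895 and 1821 genes became 646, 426, 235 and 436 with at least 200 UMIs and 372, 271, 163 and 550 at 2-fold. In Cdk2-HET Sertoli, stromal and myoid cells, 633, 728 and 590 became 230, 206 and 105 with at least 200 UMIs and 167, 138 and 88 at 2-fold. Equal weights for clusters B and C, which leave out the other clusters, left 623 genes in germ cells. In these shared clusters the Cdk2-Y15S over Cdk2-WT ratio of Kit was -0.02 (0.77 over all germ cells) and that of Spry1 0.10 (-0.77). Trimmed-mean scaling moved the median ratio of all genes in germ cells from -0.019 to 0.086. Rules for somatic classes and cell filters leave the deposited germ cells as they are, so those alternatives give no value there. Thinning to 2000 UMIs lowered 21 shares of cells by more than their counting interval. Depth limits Cxcr4, Fgfr3 and, outside germ cells, Fgf9, which had 10 to 46 UMIs a library.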
